A study of Homo sapiens with 8 samples.

Results

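The 10 genes described here encode the sensors and first transducers of the unfolded protein response: ERN1, XBP1, ATF6, ATF6B, MBTPS1, MBTPS2, EIF2AK3, EIF2AK4, ATF4 and PPP1R15A. They were read through every probe set of the array whose only gene symbol in the array annotation was one of the 10, which gave 24 of the 41091 probe sets with a single symbol and 10 of the 19775 genes these cover. ATF4 had 1 probe set, XBP1, MBTPS1, EIF2AK3, EIF2AK4 and PPP1R15A had 2 each, ERN1, ATF6B and MBTPS2 had 3 each, and ATF6 had 4.

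RNA came from 2 established human multiple myeloma cell lines, RPMI-8226 and JJN3, with 1 array for each line and treatment (8 arrays). Each line gave uninfected cells, cells given a lentivirus carrying a non-targeting (NT) shRNA, cells given one carrying an shRNA against XBP1 and cells given one carrying an shRNA against IRE1, whose gene is ERN1. Per the labels, cells were left with virus supernatant diluted to 30 to 50% for 16 h with 8 µg/mL of polybrene and were harvested at 96 h. The labels name no second shRNA per target, no selection step and no stressor, so each silenced group rests on 1 array per line, and n = 2 for a treatment means the 2 lines. Nothing in the labels says that cultures of a line were grown separately, so the p-values measure the spread between these arrays, which may be technical in part. RPMI-8226 and JJN3 are plasma cell tumour lines kept in culture, and neither stands for normal plasma cells.

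Proteins that fold badly in the endoplasmic reticulum (ER) are sensed there by IRE1, PERK and ATF6. IRE1 cuts the mRNA of XBP1 to give the spliced form, which encodes the active transcription factor; ATF6 and its relative ATF6B travel to the Golgi, where the proteases S1P (MBTPS1) and S2P (MBTPS2) release their transcription factor parts; PERK (EIF2AK3) phosphorylates eIF2, which slows translation but favours that of ATF4. GCN2 (EIF2AK4) phosphorylates the same site when amino acids are short, and PPP1R15A (GADD34) brings the phosphatase that reverses it. Plasma cells secrete much immunoglobulin, and XBP1 is required for their secretory machinery. Arrays of this kind measure mRNA, so the splicing of XBP1, the cleavage of ATF6 and the phosphorylation of PERK, GCN2 or eIF2 were not measured.

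Each probe set was deposited as a value, taken here as log2, centred on its median over the 8 arrays. Values therefore show differences between arrays and not levels, so the defining markers of plasma cells could not be checked for presence, and no gene can be ranked against another by abundance. A difference of 1 is 2-fold. Differences are given with the standard error (SE) of a limma fit to all 54613 non-control probe sets, with Benjamini-Hochberg adjustment over all of them and a threshold of 0.05 on the adjusted p. The mean of the 8 plasma cell markers (16 probe sets) was lowest on the XBP1 shRNA array of each line, at 0.01 against 0.31 to 0.44 on the other RPMI-8226 arrays and at -0.52 against -0.38 to 0.09 on the other JJN3 arrays. Poly-A spike-in controls had their highest median on the same arrays, 0.43 in RPMI-8226 and 0.19 in JJN3, and the hybridisation controls theirs on the JJN3 IRE1 shRNA array, 0.43. The 3′ minus 5′ value of the actin control separated the lines, from -0.61 to -0.43 in RPMI-8226 and from 0.13 to 0.42 in JJN3. That of the GAPDH control overlapped, from -0.083 to 0.062 and from 0.0037 to 0.046. The part of any of these in the results below was not tested. Of 16 measured markers of B, T and NK, myeloid, and epithelial or stromal cells, 0 passed between treatments. Each array measured RNA from many cells, so fewer cells expressing a gene and less RNA of it per cell cannot be told apart.

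The letters before the start sites of 4 genes on which the treatment results turn are shown because XBP1 and ATF6 are known to bind ER stress elements in promoters. Each line gives the 250 bases upstream of the RefSeq start (GRCh38.p14), 5′ to 3′ toward the gene and outside any exon of that start, with CCAAT and CCACG on either strand in capitals.
XBP1 (chr22:28800570-28800819, minus strand): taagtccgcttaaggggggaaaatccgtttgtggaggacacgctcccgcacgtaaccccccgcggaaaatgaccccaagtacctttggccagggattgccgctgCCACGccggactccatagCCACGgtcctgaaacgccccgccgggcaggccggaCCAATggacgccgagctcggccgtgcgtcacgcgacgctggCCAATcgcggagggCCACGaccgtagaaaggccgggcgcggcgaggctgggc
ERN1 (chr17:64130145-64130394, minus strand): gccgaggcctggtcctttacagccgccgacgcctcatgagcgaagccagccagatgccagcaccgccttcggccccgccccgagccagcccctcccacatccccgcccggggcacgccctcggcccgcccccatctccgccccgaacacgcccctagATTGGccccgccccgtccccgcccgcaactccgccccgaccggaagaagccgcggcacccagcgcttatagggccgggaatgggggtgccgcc
ATF6 (chr1:161766070-161766319, plus strand): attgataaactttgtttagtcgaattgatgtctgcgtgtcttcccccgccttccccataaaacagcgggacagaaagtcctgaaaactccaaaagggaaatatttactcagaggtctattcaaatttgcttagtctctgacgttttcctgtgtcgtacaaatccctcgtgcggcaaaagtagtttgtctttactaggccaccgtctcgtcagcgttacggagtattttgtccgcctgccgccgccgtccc
ATF6B (chr6:32128247-32128496, minus strand): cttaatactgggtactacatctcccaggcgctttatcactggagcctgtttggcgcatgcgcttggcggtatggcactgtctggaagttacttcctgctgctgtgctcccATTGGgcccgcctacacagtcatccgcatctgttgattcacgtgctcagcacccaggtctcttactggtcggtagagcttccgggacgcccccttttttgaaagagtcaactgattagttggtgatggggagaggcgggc

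All 10 genes had a promoter entry, with 12 starts in all. The ER stress element (ERSE), CCAAT and CCACG separated by 9 bases and searched on both strands, was present before the first start of XBP1, from 52 to 34 bases upstream, and before none of the other 11 starts. Of 35116 RefSeq promoters of that length, 26 (0.07404%) hold it. ERN1 had 1 CCAAT, from 93 to 89 bases upstream on the minus strand, and ATF6B 1, from 140 to 136 bases upstream, also on the minus strand, while ATF6 had neither motif. EIF2AK3 had 4 CCAAT boxes, EIF2AK4 and MBTPS1 each had 3 CCACG, and ATF4 and PPP1R15A each had 2. A CCAAT stands in 32.01% and a CCACG in 33.51% of all promoters; each of these is also part of ERSE. ERSE-II (ATTGGNCCACG, in 0.05126%), the XBP1 element TGACGTGG (0.6123%) and the ATF4 element TGATGNAA (3.144%) were found before none of the 12 starts.

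Counted by array, the XBP1 shRNA array of RPMI-8226 was the lowest of the 4 for 16 of the 24 probe sets, where it was the lowest for 26.2% of all probe sets on the array; the array labelled IRE1 shRNA was the lowest for 3 (20.4% of all). In JJN3 the XBP1 shRNA and the IRE1 shRNA array were the lowest for 10 each, against 29.7% and 25.5% of all probe sets. Only 3 of 24 had both silenced arrays below both control arrays in each line, namely XBP1 200670_at and both probe sets of MBTPS1; over the whole array this held for 4.11% of probe sets. The opposite order held for 0 of 24 and for 4.36% of the array.

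**Figure D1:**
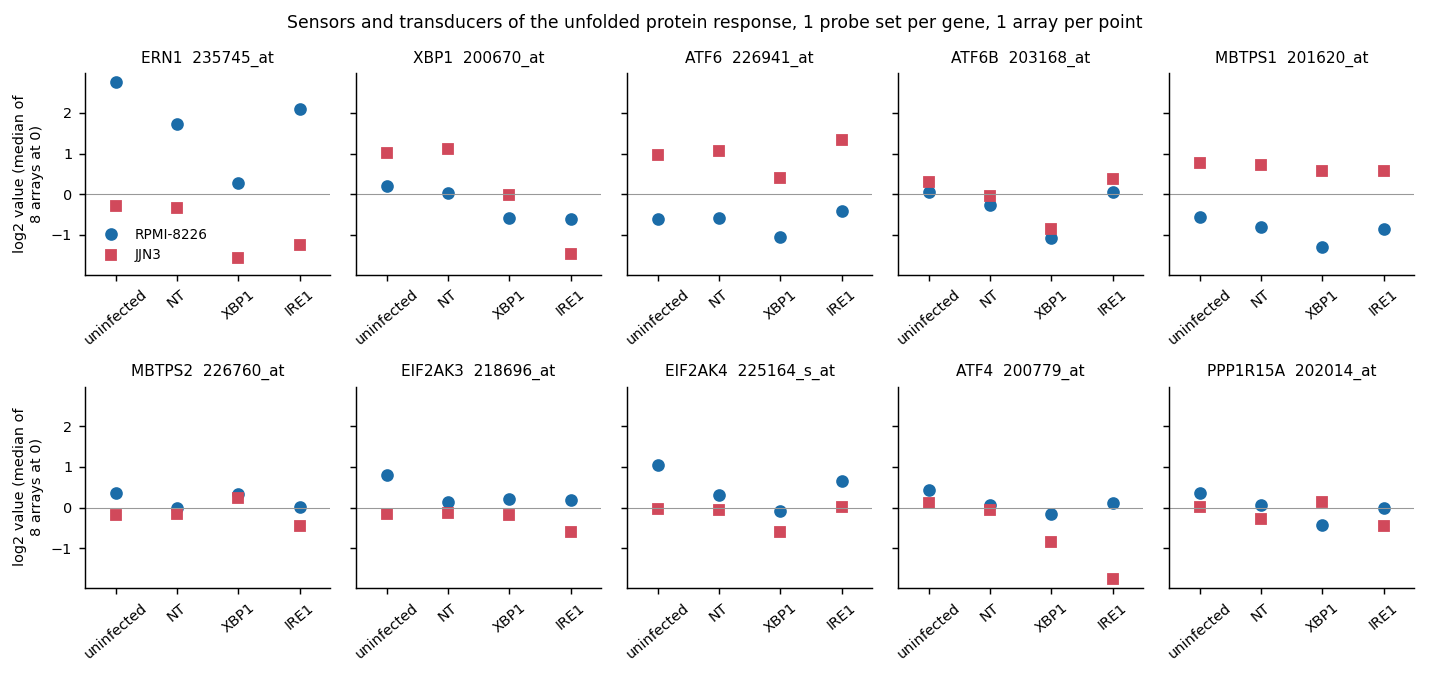
Values of 1 probe set per gene, the one with the highest SD over the 8 arrays, as log2 values centred on the median of the 8 arrays. Each point is 1 array, circles RPMI-8226 and squares JJN3, ordered by treatment. ERN1 is high in RPMI-8226 except with XBP1 shRNA, XBP1 and ATF4 are lowest on the JJN3 IRE1 shRNA array, and ATF6B dips with XBP1 shRNA in both lines.

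Set against NT shRNA, ERN1 mRNA, the target of the IRE1 shRNA, was low in JJN3 but not in RPMI-8226 on the arrays with that label. Probe set 235745_at read 2.75 in uninfected, 1.73 with NT shRNA, 0.29 with XBP1 shRNA and 2.11 on the array labelled IRE1 shRNA in RPMI-8226, and -0.29, -0.35, -1.57 and -1.24 in JJN3. The second informative probe set, 227755_at, read 1.78, 0.64, -0.72 and 0.87 in RPMI-8226 and 0.10, -0.10, -1.48 and -1.26 in JJN3. In JJN3 the array labelled IRE1 shRNA held 53.9% and 44.7% of the NT level by these probe sets; in RPMI-8226 the array so labelled held 130% and 117%. Against uninfected RPMI-8226 cells that array was lower, at 2.11 against 2.75 and 0.87 against 1.78, so the reading depends on the control. Set against NT shRNA the measurement goes against the label. Every value from that RPMI-8226 array below therefore belongs to the array labelled IRE1 shRNA and not to a culture shown to lack ERN1. The third probe set, 207061_at, spanned only -0.25 to 0.21 over the 8 arrays.

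Within each line, the lowest ERN1 values by 235745_at and 227755_at came from the XBP1 shRNA array. Against NT shRNA the difference was -1.33 ± 0.32 (SE, n = 2 lines) by 235745_at, at -1.45 in RPMI-8226 and -1.22 in JJN3. By 227755_at it was -1.37 ± 0.31, at -1.36 and -1.38. Neither passed the threshold (limma adjusted p = 0.0926 and 0.0777). Against uninfected cells the same arrays gave -1.88 and -2.04, which did pass (adjusted p = 0.0296 and 0.0210), and so did the fit of the 4 XBP1 shRNA and NT shRNA arrays alone (adjusted p = 0.0235 and 0.0207). After quantile normalisation (limma adjusted p = 0.102 and 0.112) and cyclic loess (0.220 and 0.0928) neither passed. Without 1 NT or XBP1 shRNA array the differences ran from -1.82 to -0.85 and from -1.76 to -0.97. The third probe set, 207061_at, differed by only -0.07 ± 0.15, and the mean of the 3 by -0.93 (limma adjusted p = 0.0840). In RPMI-8226 the NT shRNA array was already below the uninfected one, by -1.02 and -1.14, against -0.06 and -0.19 in JJN3.

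XBP1 mRNA was lower with either silencing shRNA in both lines. Probe set 200670_at read 0.19 in uninfected, 0.02 with NT shRNA, -0.58 with XBP1 shRNA and -0.60 on the array labelled IRE1 shRNA in RPMI-8226. In JJN3 it read 1.02, 1.11, -0.02 and -1.47. The silenced arrays thus lay below both controls of their line, and the JJN3 array with IRE1 shRNA lay below that with XBP1 shRNA. With XBP1 shRNA the level was 65.9% of NT in RPMI-8226 and 45.6% in JJN3; with IRE1 shRNA it was 64.7% and 16.8%. The fitted differences were -0.87 ± 0.38 (adjusted p = 0.358) for XBP1 shRNA and -1.60 ± 0.38 (adjusted p = 0.212) for IRE1 shRNA, neither past the threshold in limma. Without the RPMI-8226 array labelled IRE1 shRNA the latter was -2.45 and passed (adjusted p = 0.0378); without the JJN3 one it was -0.76. Both shRNAs against both controls gave -1.25 ± 0.31 (adjusted p = 0.245). The second XBP1 probe set, 242021_at, spanned -0.23 to 0.33 and differed by -0.08 ± 0.14 with XBP1 shRNA.

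ATF6, the stress sensor that becomes a transcription factor when cut, was lower with XBP1 shRNA by all of its probe sets, though by only 1 past the threshold. Probe set 203952_at fell by 0.95 ± 0.16 against NT shRNA (limma adjusted p = 0.0353), by 1.03 in RPMI-8226 and 0.86 in JJN3. Its 8 values were -0.81, 0.01, -1.02 and -0.59 in RPMI-8226 (uninfected, NT, XBP1 and IRE1 shRNA) and 0.55, 0.85, -0.01 and 0.54 in JJN3. The NT shRNA array was its highest in each line, and against uninfected cells the difference was only -0.39 (adjusted p = 0.302). The remaining probe sets differed from NT by -0.57 ± 0.14 (226941_at), -0.58 ± 0.17 (231927_at) and -0.39 ± 0.16 (217550_at), with adjusted p from 0.100 to 0.321. Across all 24 probe sets, 2 passed in this comparison, both lower, against 1.21% of all probe sets.

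ATF6B, a close relative cut by the same proteases, gave the other call. Probe set 203168_at read 0.05, -0.27, -1.08 and 0.05 in RPMI-8226 and 0.30, -0.05, -0.86 and 0.36 in JJN3, in the same order of treatments. The XBP1 shRNA arrays were the lowest in both lines, and the other 6 arrays lay between -0.27 and 0.36. Against NT shRNA it fell by 0.81 ± 0.14 (adjusted p = 0.0338), by 0.81 in each line, and against uninfected cells by 1.14 (adjusted p = 0.0120). The other probe sets of ATF6B gave smaller differences, -0.18 ± 0.18 (1554487_a_at) and -0.21 ± 0.15 (216208_s_at), and the mean of the 3 gave -0.40 (adjusted p = 0.169). Both calls against NT shRNA, that of ATF6 and that of ATF6B, ended when any 1 of the 8 arrays was left out, with adjusted p from 0.0545 to 0.243 and from 0.0652 to 0.217.

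With IRE1 shRNA in place of XBP1 shRNA, ATF6B 203168_at was higher by 1.18 ± 0.14 (adjusted p = 0.00993), at 1.13 in RPMI-8226 and 1.22 in JJN3. ATF6 226941_at was higher by 0.80 ± 0.14 (adjusted p = 0.0308) and 231927_at by 0.86 ± 0.17 (adjusted p = 0.0437). These 3 were the members called between the shRNAs, against 1.9% of all probe sets. The other probe sets of ATF6 (203952_at, 217550_at) and ATF6B (1554487_a_at, 216208_s_at) were higher by 0.29 to 0.49. None of these passed (limma adjusted p from 0.191 to 0.472). The ATF6B call ended without the array labelled IRE1 shRNA of RPMI-8226 (adjusted p = 0.0520) or of JJN3 (adjusted p = 0.134), that of 226941_at without any 1 array (0.055 to 0.298), and that of 231927_at without any 1 NT, XBP1 or IRE1 shRNA array (0.079 to 0.383). Against NT shRNA the ATF6B probe set differed by 0.37 ± 0.14. ATF6 203952_at differed by -0.45 ± 0.16 (adjusted p = 0.399), at -0.61 in RPMI-8226 and -0.30 in JJN3, and the other 3 ATF6 probe sets by 0.10 to 0.28, with none of these past the threshold. The 2 comparisons with XBP1 shRNA share its arrays.

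**Figure D2:**
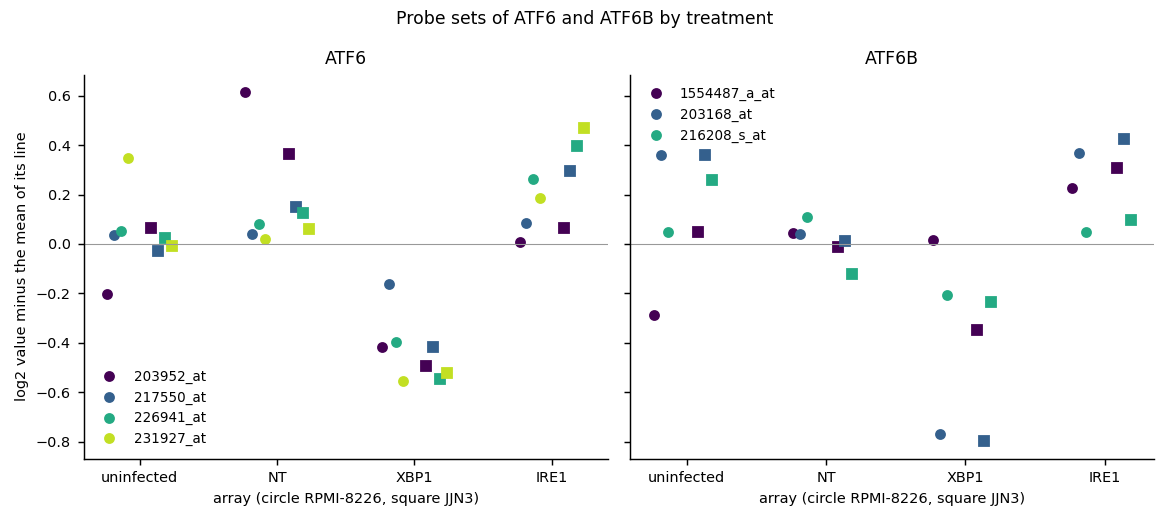
Log2 values of the 4 probe sets of ATF6 and the 3 of ATF6B, each minus the mean of its line, by treatment. Each point is 1 array, colours mark the probe sets, circles RPMI-8226 and squares JJN3. With XBP1 shRNA all ATF6 points are below 0, and ATF6B 203168_at is the lowest of its gene in both lines.

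No probe set of the proteases that cut ATF6 passed the threshold between treatments. MBTPS1 (S1P) 201620_at read -0.56, -0.79, -1.31 and -0.85 in RPMI-8226 and 0.77, 0.73, 0.58 and 0.56 in JJN3, so that both silenced arrays lay below both controls in each line. The difference of silenced from control arrays was -0.29 ± 0.12 (adjusted p = 0.514), and that of 217543_s_at was -0.22 ± 0.09 (adjusted p = 0.489). MBTPS2 (S2P) 226760_at was 0.36 ± 0.16 above NT with XBP1 shRNA, at 0.33 and 0.38 in the lines, and did not pass (adjusted p = 0.382). Its other probe sets differed by -0.02 to 0.02 in that comparison. With IRE1 shRNA set against XBP1 shRNA, 226760_at differed by -0.50 ± 0.16 (limma adjusted p = 0.186), at -0.32 in RPMI-8226 and -0.67 in JJN3. In the same comparison 206473_at differed by -0.18 ± 0.15 and 1554604_at by 0.23 ± 0.14.

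Of the kinases that phosphorylate eIF2, PERK (EIF2AK3) 218696_at stood out on the uninfected RPMI-8226 array, at 0.81 against 0.13 to 0.22 on the others of that line, and on the JJN3 IRE1 shRNA array, at -0.61 against -0.19 to -0.13. Against NT shRNA it differed by 0.02 ± 0.19 with XBP1 shRNA and by -0.21 ± 0.19 with IRE1 shRNA. GCN2 (EIF2AK4) 225164_s_at read 1.05, 0.30, -0.09 and 0.65 in RPMI-8226 and -0.02, -0.06, -0.59 and 0.02 in JJN3. The XBP1 shRNA array was its lowest in both lines, 0.46 ± 0.18 below NT (adjusted p = 0.303), and IRE1 shRNA stood 0.68 ± 0.18 above XBP1 shRNA (adjusted p = 0.115). The other GCN2 probe set, 237145_at, went the opposite way with XBP1 shRNA, at 0.30 ± 0.15, and did not pass either (adjusted p = 0.450).

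ATF4, the transcription factor made when eIF2 is phosphorylated, was low with silencing in JJN3 and hardly so in RPMI-8226. Its probe set 200779_at read 0.43, 0.07, -0.15 and 0.11 in RPMI-8226 and 0.10, -0.07, -0.85 and -1.75 in JJN3. Against NT shRNA the JJN3 array with XBP1 shRNA held 58.2% and that with IRE1 shRNA 31.3%, while the RPMI-8226 arrays held 86.0% and 103%. The fitted differences were -0.50 ± 0.34 (adjusted p = 0.611) and -0.82 ± 0.34 (adjusted p = 0.495). A test of whether the silencing effect differed between the lines gave -1.05 ± 0.39 in JJN3 relative to RPMI-8226, which did not pass (limma adjusted p = 0.944). There the XBP1 and IRE1 shRNA arrays of a line stood as replicates of silencing, and the NT shRNA and uninfected arrays as replicates of control. Its SE therefore holds differences between unlike treatments, and the RPMI-8226 array labelled IRE1 shRNA counts as silenced. In that fit XBP1 200670_at gave -1.11 ± 0.54 (adjusted p = 0.951), and the percentage of all probe sets past the threshold was 0, with 2856 of 54613 at an unadjusted p under 0.05.

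PPP1R15A, the regulatory subunit that undoes the eIF2 signal, lay on opposite sides of NT shRNA in the lines with XBP1 shRNA. Probe set 202014_at was at -0.43 with XBP1 shRNA and 0.07 with NT in RPMI-8226, and at 0.15 and -0.29 in JJN3. The differences of -0.50 and 0.44 left a fitted value of -0.03 ± 0.24. Probe set 37028_at gave -0.14 and 0.29.

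**Figure D3:**
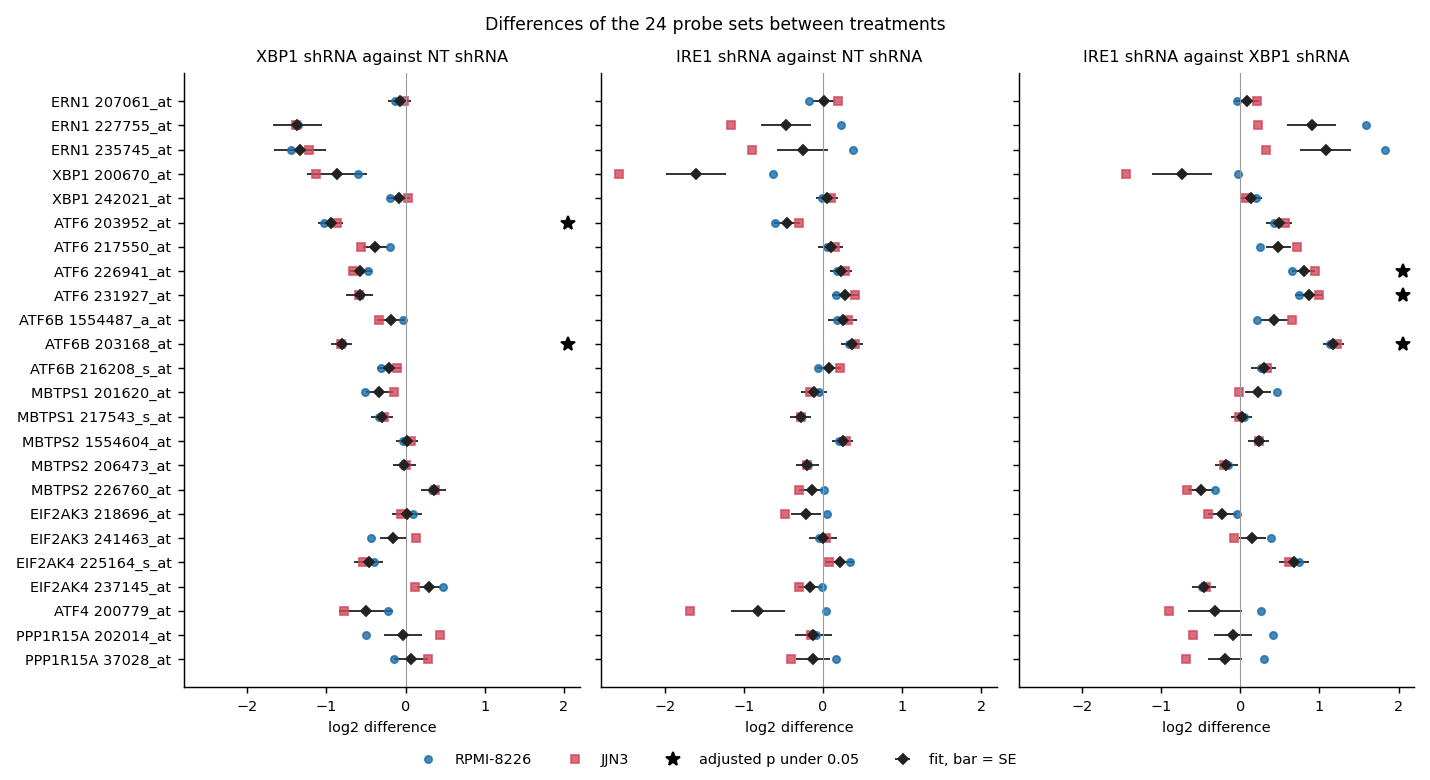
Log2 differences of the 24 probe sets of XBP1 shRNA from NT shRNA (left), of IRE1 shRNA from NT shRNA (middle) and of IRE1 shRNA from XBP1 shRNA (right). Diamonds with bars give the fit and its SE (n = 2 lines), circles RPMI-8226 and squares JJN3, and stars the 5 differences with an adjusted p under 0.05. In the middle panel ERN1 227755_at and 235745_at and ATF4 lie near or above 0 in RPMI-8226 and below it in JJN3, while ERN1 207061_at is at -0.17 in RPMI-8226 and 0.19 in JJN3.

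Over the 24 probe sets, 19 were below NT with XBP1 shRNA, with a median difference of -0.26 against 0.00059 over all probe sets. With IRE1 shRNA 14 were below NT, the median was -0.12, and 0 of 24 passed, against 0.0183% (10) of all probe sets; 5170 of these had an unadjusted p under 0.05. In the pooled comparison of silenced with control arrays 19 were lower and 0 passed, with a percentage called of 0 over all probe sets and 5080 at an unadjusted p under 0.05. NT shRNA against uninfected cells, which takes virus supernatant, polybrene and NT shRNA together, likewise gave 0 calls among the 24 and over the array. There 3044 of all probe sets had an unadjusted p under 0.05. The largest member differences in this comparison were -0.67 ± 0.31 (ERN1 227755_at) and 0.56 ± 0.16 (ATF6 203952_at). The comparisons against NT shRNA share the NT arrays.

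Between JJN3 and RPMI-8226, 17 of 24 probe sets passed (limma, n = 4 arrays per line), 8 higher and 9 lower in JJN3, on arrays where 56% of all probe sets did. The 4 arrays of a line are its 4 treatments and not replicate cultures. The p-values therefore measure how far the line difference varied between treatments. In 11 of 24 the 4 arrays of one line all lay on one side of the 4 of the other, against 48.7% of the array, so differences between the lines were common over the whole array. The 3′ minus 5′ value of the actin control also separated the lines, and its part in these differences was not tested. The median over all probe sets was -0.14, and calls on the array divided into 12439 higher and 18163 lower; after cyclic loess normalisation the split was 13653 and 11959 (JJN3 against RPMI-8226), so small differences between the lines depend on the scaling.

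ERN1 was the member most reduced in JJN3, by -2.58 ± 0.23 (235745_at, 5.98-fold, adjusted p = 1.63e-05) and -1.33 ± 0.22 (227755_at, adjusted p = 0.000891). The third ERN1 probe set, 207061_at, was at -0.27 ± 0.10 and did not pass (adjusted p = 0.0542). ATF6 was higher in JJN3 by all 4 probe sets, by 1.08 ± 0.11 to 1.62 ± 0.10 (2.12-fold to 3.07-fold), and MBTPS1 by 1.54 ± 0.12 and 0.55 ± 0.10. ATF6B disagreed between its probe sets, at 0.59 ± 0.13, 0.25 ± 0.10 and -0.32 ± 0.11, and 203168_at turned to -0.16 after cyclic loess. EIF2AK3 218696_at (-0.61 ± 0.13), EIF2AK4 225164_s_at (-0.64 ± 0.13), ATF4 (-0.76 ± 0.24) and XBP1 242021_at (-0.43 ± 0.10) were lower in JJN3, as were MBTPS2 206473_at and 226760_at (-0.33 and -0.31). Both PPP1R15A probe sets, at -0.13 ± 0.17 and -0.01 ± 0.15, lay near the median of all probe sets.

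XBP1 200670_at differed by 0.40 ± 0.27 between the lines (adjusted p = 0.230); without the IRE1 shRNA arrays, left out after the ERN1 values were seen, it was 0.82 higher in JJN3 (adjusted p = 0.00227). The ATF4 difference was then -0.39 and did not pass (adjusted p = 0.0562), and it also ended without an XBP1 shRNA array (adjusted p = 0.0511). Calls between the lines also ended for ATF6B 203168_at with any 1 array left out (adjusted p from 0.086 to 0.134), and with any 1 of 6 arrays for ATF6B 216208_s_at (0.0708 to 0.126), MBTPS2 206473_at (0.064 to 0.0873) and MBTPS2 226760_at (0.0545 to 0.179). For all 4 ATF6 and both MBTPS1 probe sets, for ERN1 235745_at, EIF2AK3 218696_at and EIF2AK4 225164_s_at, the line call held under each alternative that was run.

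**Figure D4:**
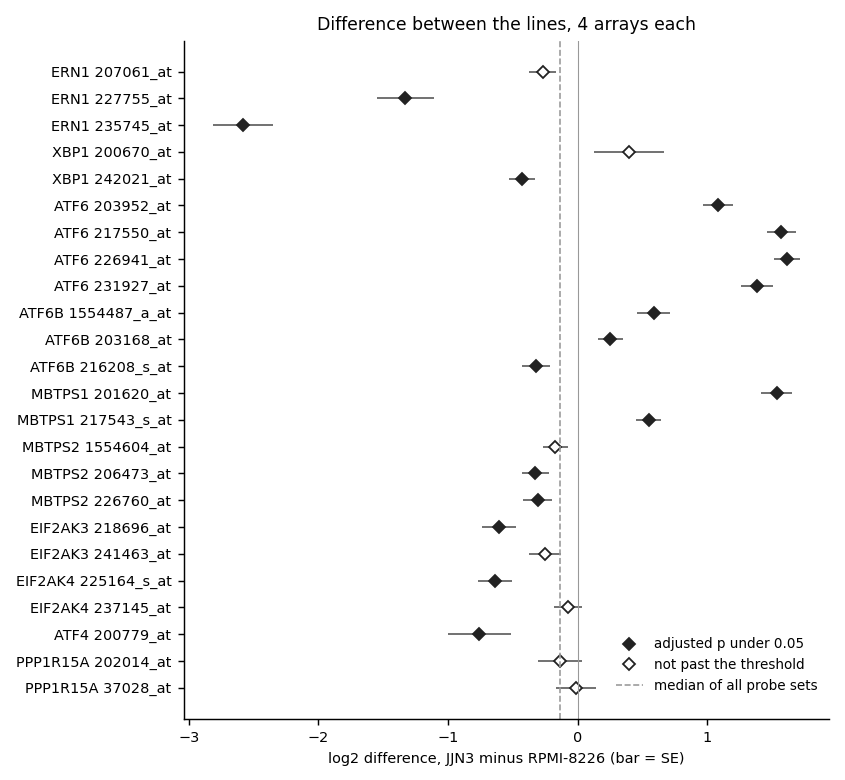
Log2 difference of JJN3 minus RPMI-8226 for the 24 probe sets, with treatment as a block and 4 arrays per line; bars are SE. Filled diamonds passed the threshold, open ones did not, and the dashed line is the median of all probe sets at -0.14. ERN1 227755_at and 235745_at are far to the left, ERN1 207061_at is at -0.27, and the ATF6 and MBTPS1 probe sets to the right.

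The genes around these sensors were followed by 6 lists, whose members were chosen with earlier results known. Among 29 measured genes of the secretory pathway known as XBP1 targets, 3 fell with XBP1 shRNA and 0 rose: DNAJB9, an ER co-chaperone, by 1.25 ± 0.19 (adjusted p = 0.0258), MANF, a secreted stress protein, by 0.83 ± 0.15, and SSR2, part of the complex beside the translocon, by 0.81 ± 0.15. By probe set, 4 of their 70 were called, all lower, against 0.681% called lower over the array. These 70 had a median difference of -0.25, and of -0.43 with IRE1 shRNA, where 63 of 70 were below NT and 0 genes passed. Of 14 ATF6-driven chaperone and degradation genes, 2 fell with XBP1 shRNA, SEL1L, the adaptor of the ER ubiquitin ligase, by 1.07 ± 0.14 (adjusted p = 0.0181) and again MANF; 2 of the 35 probe sets were called, and their median was -0.20. SEL1L was then higher by 0.72 ± 0.14 with IRE1 shRNA than with XBP1 shRNA (adjusted p = 0.0441), the direction seen for ATF6 and ATF6B, while CREBRF 1554229_at, listed with it, was lower by 0.87 ± 0.17.

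Among the 14 other ER-membrane bZIP factors, protease substrates and NF-Y subunits, NFYC 202215_s_at, a subunit of the factor that binds CCAAT, fell by 0.72 ± 0.14 with XBP1 shRNA (adjusted p = 0.0486) and NFYA 204109_s_at, another subunit, was lower with IRE1 shRNA than with XBP1 shRNA by 0.85 ± 0.17 (adjusted p = 0.0433). Of 18 genes of eIF2, its kinases and phosphatases, EIF2S3 205321_at, a subunit of eIF2, fell by 1.24 ± 0.20 with XBP1 shRNA (adjusted p = 0.0310) and PPP1CA, the catalytic phosphatase subunit that PPP1R15A recruits, rose by 0.75 ± 0.14 (adjusted p = 0.0456). DNAJC3, a co-chaperone known to inhibit PERK, was lower with IRE1 shRNA than with XBP1 shRNA by 1.28 ± 0.21 (adjusted p = 0.0235), and EIF2S3 224936_at was higher by 0.75 ± 0.15. DNAJC3 also stands on the list of XBP1 targets. It was the only gene of that list called between the shRNAs, with 2 of the 70 probe sets lower and 0 higher. For IRE1 partners and regulators (13 measured) 0 genes passed with XBP1 shRNA, and MAPK8, the JNK kinase, was lower with IRE1 shRNA than with XBP1 shRNA by 0.85 ± 0.16 (adjusted p = 0.0361). By probe set with XBP1 shRNA, the bZIP and NF-Y list had 0 higher and 1 lower of 40, and the eIF2 list 1 and 2 of 36. Over the array 0.527% were called higher and 0.681% lower. Between the shRNAs the counts were 0 and 1 of 40, 1 and 2 of 36, and 0 and 1 of 32 for IRE1 partners, against 0.908% and 0.987%.

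The 31 partners and targets of ATF4 had the lowest median of the 6 lists against NT shRNA. With XBP1 shRNA 55 of their 61 probe sets were below NT, with a median of -0.57, at -0.33 in RPMI-8226 and -0.84 in JJN3. EIF4EBP1, a translation repressor, fell by 2.41 ± 0.30 (limma adjusted p = 0.0143) and was the only one called. That is 1 of 61 probe sets, against 0.681% called lower over the array. With IRE1 shRNA the median was -0.79, at -0.14 in RPMI-8226 and -1.45 in JJN3, and 0 genes passed. That division by line is the one ATF4 itself showed. None of the 9 calls named here or among the plasma cell markers for XBP1 shRNA against NT shRNA held when each array was left out in turn, and 4 of them ended with every array; of the 8 for IRE1 shRNA against XBP1 shRNA 0 held throughout and 5 ended with every array. Besides EIF4EBP1, PRDM1, a plasma cell transcription factor among the 8 markers, fell by 1.23 ± 0.19 with XBP1 shRNA (adjusted p = 0.0262). PRDM1 and IRF4, another plasma cell factor, were higher with IRE1 shRNA than with XBP1 shRNA by 0.96 ± 0.19 and 1.18 ± 0.21.

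Between the lines 22.8% of all probe sets were called higher in JJN3 and 33.3% lower, with a median of -0.14, and the lists are counted beside that. Of the 14 ATF6 targets 9 were higher in JJN3 and 1 lower (22 and 1 of 35 probe sets, median 0.42), among them HSP90B1 216449_x_at, an ER chaperone, by 1.59 ± 0.12 and HYOU1, another, by 0.87 ± 0.11. Of the 31 ATF4 partners and targets 5 were higher and 14 lower (6 and 21 of 61 probe sets, median -0.18), a share of lower calls close to that of the array, with PSPH, an enzyme of serine synthesis, at -2.57 ± 0.32. For XBP1 targets 11 were higher and 16 lower of 29 (21 and 35 of 70 probe sets), and KDELR3, an ER retrieval receptor, was higher by 5.01 ± 0.11. IRE1 partners divided into 5 higher and 7 lower of 13 (12 and 9 of 32 probe sets), the bZIP and NF-Y list into 3 and 10 of 14 (8 and 13 of 40), and the eIF2 list into 7 and 6 of 18 (13 and 9 of 36). In the last, IMPACT, an inhibitor of GCN2 activation, was higher in JJN3 by 4.02 ± 0.11, EIF2AK1, the haem-regulated eIF2 kinase, by 2.27 ± 0.12 and GCN1, an activator of GCN2, by 1.10 ± 0.10.

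After the mean of each line was taken off, the probe sets closest to 3 of the members over the 8 arrays were found by the root mean square of the log2 difference, among the single-symbol probe sets of other genes. Closest to ERN1 235745_at were U2SURP 212061_at (0.12), HIPK2 225368_at (0.17) and UBE2QL1 226612_at (0.19), where the median over all was 0.77. Closest to XBP1 200670_at were SARS1 200802_at, KIF21B 204411_at and ASS1 207076_s_at (each 0.18 to 0.19, median 0.79), and closest to ATF4 were SHMT2 214437_s_at (0.068), PHGDH 201397_at (0.101) and CARS1 212971_at (0.106, median 0.56). SARS1, SHMT2 and PHGDH also stand on the list of ATF4 targets. That list was chosen with earlier results of these data known, and the closest probe sets lie below the median by the way they were picked. Both are descriptions and not tests.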

How the data were processed

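RNA from 8 cultures was measured on Affymetrix arrays, 1 for each line and treatment. The deposited values are log2 values made with RMA per the submitters' processing notes, which give no version; neither the log base nor centring is stated there, and base 2 was taken because RMA returns it. In the table of 54675 probe sets every row has a median of 0 over the 8 arrays. The number of arrays limits precision, and no signal over background can be read.

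The 62 control probe sets were left out. The other 54613 were fitted by limma 3.58.1 (R 4.3.3; lmFit, eBayes, two-sided), with Benjamini-Hochberg adjustment over all. Treatments were compared over all 8 arrays with the line as a block, silenced against control as 4 against 4 with the same block, the lines with treatment as a block, and the silencing effect between lines by an interaction. The line is the replicate number, so the block pairs arrays of the same line. The script was tested on simulated data with 200 probe sets changed. A log2 difference of 1 was recovered for 0 of 200 in each comparison of 2 treatments and in the interaction. It was recovered for 159 in silenced against control and for 104 between the lines. A difference of 2 was recovered for 167 to 180 between treatments and for 151 in the interaction. The simulated spread was in every comparison that left by the fit of the 4 treatments with the line as a block. Differences between unlike treatments are missing from it, but the silenced against control and interaction fits keep them in their spread. The recovery given for these 2 fits may therefore be too high for the real data. A difference that did not pass is thus not shown to be absent.

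Genes were named from the array annotation: 41091 probe sets had 1 symbol, 1801 several and 11721 were not listed. All member probe sets past the threshold are named; in a pathway list, up to 4 called genes of largest difference, or the largest where none passed. The members and lists were chosen with earlier results of these data known. Promoter sequences are from RefSeq (GRCh38.p14). No 2 arrays were identical. Alternatives were the block, 1 array left out, 3 normalisations, an SD filter, robust eBayes, fewer arrays, uninfected cells as control, and 1 value per gene.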

Additional observations from a re-analysis of the deposited data

Results flagged for a closer look

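In groups of 4 arrays, 96 tests asked whether an end value stood apart from the others. The measure was its gap to the nearest divided by the whole range, set against Dixon's 95% critical value. The groups were the arrays of each line, the silenced arrays of both lines and the control arrays of both lines. About 1 in 20 groups is marked this way by chance. Here 5 of the 96 were marked, near that rate, all of them in groups of a single line. In the groups that mix the lines, a difference between the lines widens the range. An end value is then less readily marked, so the lack of marks there is not a result. EIF2AK3 218696_at was marked in both lines: the uninfected RPMI-8226 array, at 0.81 with the others from 0.13 to 0.22, gave a ratio of 0.863, and the JJN3 IRE1 shRNA array, at -0.61 with the others from -0.19 to -0.13, gave 0.871. EIF2AK4 225164_s_at was marked in JJN3, where the XBP1 shRNA array was at -0.59 and the others from -0.06 to 0.02 (ratio 0.866). EIF2AK4 237145_at was marked in RPMI-8226, where the XBP1 shRNA array was the high one, at 0.39 with the others from -0.10 to -0.02 (ratio 0.835). ERN1 207061_at was marked in JJN3, where the IRE1 shRNA array was at -0.03 and the others from -0.25 to -0.22 (ratio 0.866).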

How the results depend on the processing

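Of the 168 differences of the 24 probe sets (7 comparisons), 22 were called, and over their alternatives the call held in 248 values and ended in 104, always in the same direction except for ATF6B 203168_at between the lines, which turned to -0.16 after cyclic loess. Below the threshold, 15 values of 7 uncalled differences passed under an alternative. Among named genes of the lists, SEC24D 215209_at turned to -0.54 after cyclic loess and NFYC 238231_at to -0.034 as the mean of its probe sets, both JJN3 against RPMI-8226. The causes were not tested.

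Without the replicate block, that is with the lines not paired, 0 probe sets passed for XBP1 shRNA against NT shRNA, 0 for IRE1 shRNA against NT shRNA and 0 for IRE1 shRNA against XBP1 shRNA, where 660, 10 and 1035 passed with it (1140, 621 and 1250 then had an unadjusted p under 0.05). After quantile normalisation these comparisons gave 345, 0 and 452, and silenced against control gave 14 in place of 0. For XBP1 shRNA against NT shRNA, the 4 arrays alone gave 421, leaving out both IRE1 shRNA arrays 320, and uninfected cells as control 1151. For IRE1 shRNA against NT shRNA, cyclic loess and the 4 arrays alone gave 0 each, array medians at 0 gave 5, the SD filter 6, robust eBayes 18 and uninfected cells as control 1. With 1 probe set per gene, which tests fewer features, the counts were 436 for XBP1 shRNA against NT shRNA, 657 between the shRNAs and 13632 for JJN3 against RPMI-8226, and with the mean of a gene's probe sets 275, 297 and 12993, and 5 for IRE1 shRNA against NT shRNA.

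Leaving out 1 array at a time gave 0 (without the RPMI-8226 NT shRNA array) to 342 for XBP1 shRNA against NT shRNA, 0 to 38 for IRE1 shRNA against NT shRNA, 1 (without the JJN3 IRE1 shRNA array) to 755 for IRE1 shRNA against XBP1 shRNA, 0 to 47 for silenced against control, and 0 to 1 for NT shRNA against uninfected and for the interaction. A treatment left with 1 array is assumed to vary like the others, and in the line comparison the partner of an array left out adds nothing.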

Other observations

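A pair of probe sets carry the symbol of a member together with another gene and so stood outside the 24. Probe set 211611_s_at, annotated to TNXB and ATF6B, read -0.03 in uninfected, -0.38 with NT shRNA, -1.23 with XBP1 shRNA and 0.03 on the array labelled IRE1 shRNA in RPMI-8226. In JJN3 it read 0.60, 0.17, -0.45 and 0.61. The XBP1 shRNA array was the lowest in each line, as it was for ATF6B 203168_at. Probe set 216531_at, annotated to YY2 and MBTPS2, read 0.12, 0.08, -0.03 and 0.10 in RPMI-8226 and -0.10, 0.03, -0.40 and -0.09 in JJN3, also lowest with XBP1 shRNA in both. Neither was tested as a member, and the annotation does not say which of its genes each one measures.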
